A study of Drosophila melanogaster with 38 samples.

Results

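MSL2 peaks were examined at 47 homeobox transcription factor genes of Drosophila melanogaster, listed by name and leaving out the Hox genes, the LIM homeobox genes and the further homeobox genes of the genome. All 47 symbols were found in the annotation, among 18164 genes on X, 2L, 2R, 3L, 3R and 4. A gene carried a peak when any interval of the 3 deposited MSL2 peak lists overlapped 1 kb to either side of an annotated transcription start site (TSS), and 25 of the 47 genes did so while 22 did not. The study performed chromatin immunoprecipitation and sequencing on the dissected front part of larvae of the third instar, in 38 libraries (26 immunoprecipitates and 12 inputs) divided equally between the sexes. Wild-type larvae were white-eyed (w1118) Oregon-R, and other larvae were heterozygous (msl-2-delta-7/10 / CyO-GFP) or null (msl-2-delta-7 over msl-2-delta-10) for msl-2. MSL2 itself was precipitated in 2 libraries, 1 per sex, through a FLAG tag, in larvae with the msl-2 alleles msl-2227 over msl-2km that carried the driver tub-Gal4 and the transgene UAS-msl-2::3Flag. The tub-Gal4 driver is active in nearly all tissues, so the tagged protein is presumably made in both sexes and not from its own promoter. Its level in these larvae was not examined here. The untagged control, also 1 library per sex for the same antibody, is labelled msl-2227/km / CyO-GFP ; + / + and carried neither driver nor transgene. Each combination of sex, genotype and target had 1 library, so no group had replicates.

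The peak lists give positions alone. They name no library, sex, genotype or calling threshold, and the depth behind them is unknown, so a gene outside the lists was not called at that threshold and is not shown to be unbound. The lists hold 159 distinct intervals called HAS (high-affinity sites, at which the complex is thought to enter the X chromosome), of which 135 lay on X and 24 on autosomes, besides 680 other X peaks and the peaks of the autosomal list, together 2508 distinct peaks on the chromosomes named above. No differences between groups of genes were tested. Intervals given for shares are 95% Wilson intervals and cover counting error only, and neighbouring genes of a cluster are not independent of each other.

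Homeobox genes encode transcription factors that bind DNA through a homeodomain, and they assign identities to segments, organs and single neurons. Many are silenced by Polycomb outside the cells in which they act. MSL2 is the DNA-binding subunit of the MSL dosage compensation complex, which acetylates H4K16 and raises transcription of the male X chromosome, and which recognises GA-rich elements in its high-affinity sites. The homeobox genes described here lie mostly on autosomes, 43 against 4 on X.

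The sequence beneath the peaks is shown for the widest peak with a repeat match in each group of genes, for 4 genes known from different tissues. Each line is 200 bases of the gene's own strand from 5′ to 3′, lying within the peak and upstream of the TSS. Capitals mark every base that belongs to a match to GAGAGAGA or CACACACA on either strand with up to 1 mismatch. The letters come from the RefSeq Release 6 assembly (dm6), the build of the peak files. The mirr stretch is chr3L:12693306-12693505 on the plus strand, from 333 to 134 bp upstream of the TSS. The oc stretch is chrX:8650957-8651156 on the minus strand, from 475 to 276 bp upstream. The Ptx1 stretch is chr3R:30912456-30912655 on the plus strand, from 298 to 99 bp upstream. The lbe stretch is chr3R:21446538-21446737 on the minus strand, from 200 to 1 bp upstream. The stretch of lbl, chr3R:21434334-21434533 on the minus strand, from 400 to 201 bp upstream, has no peak. It was chosen after the values were seen, because it belongs to the member promoter with the most GA matches.
mirr: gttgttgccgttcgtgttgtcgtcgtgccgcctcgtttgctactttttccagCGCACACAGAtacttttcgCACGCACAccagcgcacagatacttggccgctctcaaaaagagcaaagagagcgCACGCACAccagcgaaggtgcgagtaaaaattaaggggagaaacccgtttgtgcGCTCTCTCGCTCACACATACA
oc: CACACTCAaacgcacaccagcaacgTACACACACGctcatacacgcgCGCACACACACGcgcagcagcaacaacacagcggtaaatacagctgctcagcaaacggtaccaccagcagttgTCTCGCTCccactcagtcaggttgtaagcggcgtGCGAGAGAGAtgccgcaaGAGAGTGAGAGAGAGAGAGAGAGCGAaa
Ptx1: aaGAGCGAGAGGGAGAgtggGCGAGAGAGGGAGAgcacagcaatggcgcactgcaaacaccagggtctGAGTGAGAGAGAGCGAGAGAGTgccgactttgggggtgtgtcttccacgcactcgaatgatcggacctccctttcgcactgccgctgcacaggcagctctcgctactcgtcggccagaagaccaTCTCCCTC
lbe: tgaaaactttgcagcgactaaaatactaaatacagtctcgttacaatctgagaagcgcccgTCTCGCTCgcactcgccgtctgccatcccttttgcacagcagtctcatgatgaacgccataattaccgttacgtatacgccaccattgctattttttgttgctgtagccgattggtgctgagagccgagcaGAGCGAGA
lbl: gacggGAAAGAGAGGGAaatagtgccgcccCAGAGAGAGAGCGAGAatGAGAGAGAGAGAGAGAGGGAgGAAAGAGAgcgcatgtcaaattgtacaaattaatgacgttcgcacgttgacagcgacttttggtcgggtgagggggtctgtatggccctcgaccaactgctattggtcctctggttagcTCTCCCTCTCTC
The Ptx1 stretch held 16 GA match starts and 0 CA match starts, and the oc stretch held 13 and 6. The mirr stretch was mainly of the other kind, with 3 GA and 7 CA match starts. At lbe, 2 GA match starts lay in the stretch shown, out of 17 in the whole peak. The stretch stops at the TSS, while the GA matches at lbe reached 86 bp downstream of it. The lbl stretch held 18 GA match starts, more than any of the peak stretches shown.

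Among the 47 homeobox genes, 25 carried a peak, a share of 53.19% (interval 39.23 to 66.67). Of the other 18117 genes on the same chromosomes, 2631 did (14.5%). The whole interval of the homeobox genes lay above that background. The genes were listed with earlier results of these data known, so this is a description and not a test. Since homeobox genes encode proteins, the other protein-coding genes were also taken as the background, and 2240 of 13898 of them carried a peak (16.1%). Every homeobox gene with a peak had exactly 1 at its TSS positions.

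The number of start sites did not separate the homeobox genes. Of the 34 members with 1 TSS, 18 carried a peak (52.94%), and of the 13 with 2 or more, 7 did (53.85%). Among other protein-coding genes the share was higher with more start sites, at 1151 of 10212 genes with 1 TSS (11.3%) and 1089 of 3686 genes with 2 or more (29.5%). Members with a peak had a median length of 10140 bp, against 7382 bp for those without, and the ranges overlapped widely, from 2768 to 43539 bp and from 477 to 40511 bp.

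Both X and autosomes contributed. On X, 3 of the 4 members carried a peak, beside 781 of 2809 other X genes (27.8%). On the autosomes 22 of 43 did (51.16%, interval 36.75 to 65.38), beside 1850 of 15308 other autosomal genes (12.1%). By arm, peaks were carried by 4 of 7 members on 2L, 4 of 10 on 2R, 5 of 9 on 3L and 9 of 15 on 3R. Neither member on chromosome 4 carried a peak. Shares of other genes were not taken for each arm, so only the 12.1% of all other autosomal genes stands beside these counts.

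**Figure D1:**
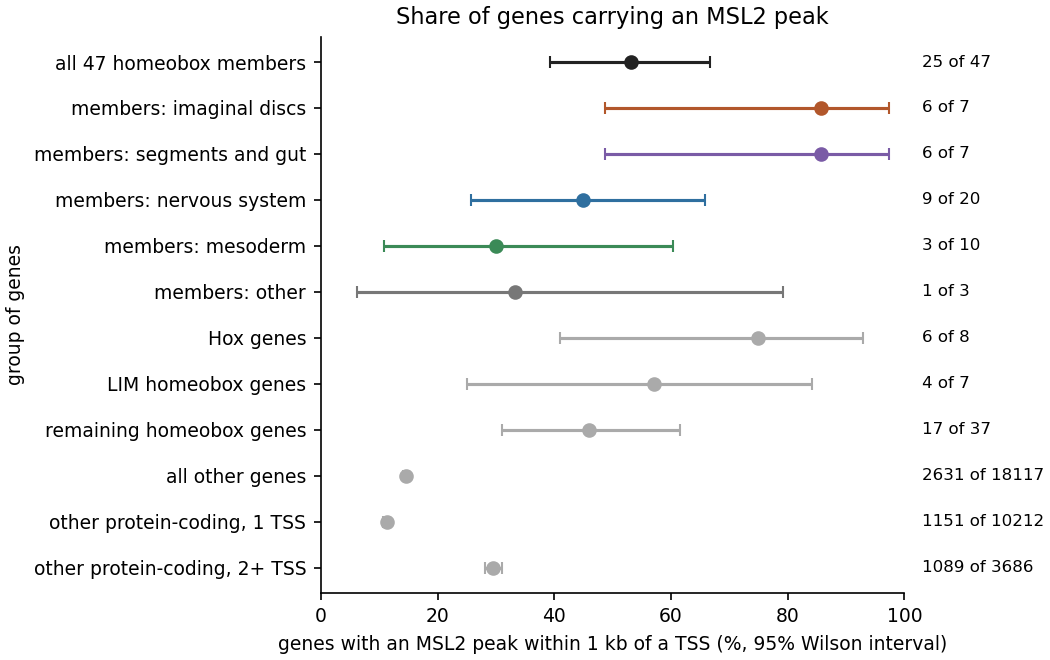
Share of genes with an MSL2 peak within 1 kb of a TSS, in percent on the x axis, for the homeobox members, their groups by tissue, other homeobox genes and other genes. Points are shares and bars are 95% Wilson intervals, with gene counts at the right; the 25 of 47 members sit to the right of the 3 groups of other genes, as do the 3 lists of other homeobox genes.

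The members were grouped by the tissue in which they are best known, while the peak lists themselves do not separate tissues. The counts stand beside the 14.5% of all other genes. Of the imaginal disc genes 6 of 7 carried a peak (85.71%), and of the segment and gut genes also 6 of 7. Of the nervous system genes 9 of 20 did (45.00%), and of the mesodermal genes 3 of 10 (30.00%, interval 10.78 to 60.32). The intervals of the groups overlapped. Differences between the groups were not tested, so the groups are not shown to differ. The interval of the mesodermal genes also included the 14.5% of other genes. By homeodomain class, 13 of 23 ANTP, 8 of 12 PRD, 3 of 5 TALE and 1 of 3 POU genes carried a peak, and none of the 2 zinc-finger, 1 CUT and 1 SINE genes did.

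Among the genes of the imaginal discs, the sacs of larval epithelium that form the adult appendages and eyes, the Iroquois complex forms a cluster on 3L. Its 3 genes ara, caup and mirr pattern the notum, the wing veins and the dorsal eye, and each carried its own peak. The peak of ara lay at 3L, 12580347 to 12580739, 393 bp wide, with its midpoint 129 bp upstream of the TSS. The peak of caup lay at 12609253 to 12609725, 473 bp wide and 142 bp upstream. The peak of mirr at 12692815 to 12693670 was the widest of all members at 856 bp, with its midpoint 397 bp upstream and its downstream end past the TSS. All 3 peaks thus overlapped the TSS itself.

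The remaining disc genes act in legs, antennae and eyes. The peak of aristaless (al), which forms the tips of legs and the arista, at 2L, 377736 to 378169, was 434 bp wide and 160 bp upstream. That of C15, a distal leg gene, was 311 bp wide, 321 bp upstream, and also within 1 kb of a TSS of lncRNA:CR44032. That of rough (ro), which specifies photoreceptors, at 3R, 26881440 to 26881589, was 150 bp wide and 343 bp upstream, and it also lay within reach of T48. The exception was zfh2, a zinc-finger homeobox gene of the wing hinge and leg on chromosome 4. It had no peak at its TSS but a 250 bp peak in an intron, at 507234 to 507483 and 5424 bp from the TSS to the peak edge.

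The peaks of the segmentation and gut genes were 150 to 349 bp wide. The peak of caudal (cad), which patterns the posterior embryo and the gut, at 2L, 20770399 to 20770683, was 285 bp wide and 190 bp upstream, and a second interval of 151 bp lay just past its 3′ end, at 20783229 to 20783379. The pair-rule gene paired (prd) had a 150 bp peak 126 bp upstream, at 12085879 to 12086028, which was also counted for asRNA:CR44592 and lncRNA:CR44593. The midgut gene Ptx1 had a peak at 3R, 30912403 to 30912751, 349 bp wide and 177 bp upstream, ending 3 bp before the TSS. The peak of orthopedia (otp), a hindgut and brain gene, at 2R, 20903496 to 20903789, was 294 bp wide and 228 bp upstream.

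Neighbouring copies differed in the gooseberry pair. The segment polarity gene gsb and its neighbour gsb-n, which acts in the nervous system, arose by duplication. Despite that role, gsb-n was counted with gsb among the segment and gut genes, so the 6 of 7 of that group include it. The peak at 2R, 25052356 to 25052668, 313 bp wide, lay 181 bp upstream of gsb-n, and it was also the peak nearest to gsb, 9296 bp away. In contrast, inv and its paralogue engrailed (en), which together set posterior compartments, both carried a peak. That of inv was 269 bp wide and 100 bp upstream of the second of its 2 TSS positions, at 11475474 to 11475742, and that of en was 264 bp wide and 99 bp upstream, at 11528178 to 11528441.

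Genes of the nervous system split nearly evenly. The head gap gene ems and its paralogue E5 are neighbours on 3R, and both carried a peak. The peak of ems at 13901529 to 13901859 was 331 bp wide and 159 bp upstream, and the peak of E5 at 13874964 to 13875286 was 323 bp wide and 209 bp upstream. The dorsal column gene Dr had a 485 bp peak 137 bp upstream, at 29556007 to 29556491, while the genes of the other columns, ind and vnd, had their nearest peak 57688 and 26500 bp away. The motor neuron gene exex had a 251 bp peak 156 bp upstream, at 3L, 7947905 to 7948155, and HGTX, which acts in the same kind of neuron, had its nearest peak 13729 bp away. Further peaks were found at unpg (2R, 9194937 to 9195155, 219 bp wide, 159 bp upstream) and at vvl (3L, 6789817 to 6790190, 374 bp wide, 155 bp upstream), a POU gene of the tracheae and the nervous system.

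On X, orthodenticle (oc), a gap gene of the head and anterior brain, was the only member with a HAS. This HAS at 8650597 to 8651206 was 610 bp wide, the second widest of the members, with its midpoint 220 bp upstream of the first of 3 TSS positions. Peaks of the other X list lay at unc-4, a gene of motor neuron and interneuron identity, at 17768066 to 17768552 (487 bp wide, 260 bp upstream), and at Vsx1, a gene of the visual system, at 5593851 to 5594244 (394 bp wide, 208 bp upstream). The X gene vnd had no peak at a TSS.

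Members of the nervous system without a peak included pairs of neighbours. Neither nub nor pdm2, adjacent POU genes of neuroblasts, carried one, with the nearest peaks 41085 and 14189 bp away. The brain genes Rx and hbn, which lie near otp, were also without a peak, and the peak nearest to Rx, 12964 bp away, was that of otp. Peaks were further absent at bsh, onecut, repo and scro, with distances of 32999, 96771, 6424 and 409862 bp. The glial gene repo is the closest of these 4, and scro has the largest distance of all 47 members.

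Of the 10 mesodermal genes, 3 carried a peak, beside the 14.5% of other genes, and 5 of the 10 lie in the NK cluster on 3R. Along the chromosome the cluster runs tin, bap, lbl, lbe, C15 and slou. The heart gene tin had a 171 bp peak 98 bp upstream at 21378794 to 21378964, whereas bap, its neighbour and the gene of the visceral mesoderm, had none nearer than this peak, 9916 bp away. The ladybird gene lbe had a 339 bp peak at 21446415 to 21446753, with its midpoint 47 bp upstream, and its paralogue lbl, 12282 bp from that same peak, had none. The peak of C15 lay at 21499510 to 21499820, and the muscle gene slou was 22976 bp from its nearest peak. Genes with and without a peak were therefore interspersed along the cluster.

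The other mesodermal genes lay near the limit or far from it. H2.0, a gene of the visceral mesoderm, was the member just inside, with a 160 bp peak at 2L, 6019939 to 6020098, whose edge was 537 bp from the TSS and which was also counted for CG13996. Just outside were btn, 1110 bp from a 153 bp peak at the TSS of Efa6, and zfh1, 1558 bp from a 187 bp peak at no annotated TSS within 1 kb. Six4 and lms, both muscle genes, were 20781 and 66561 bp from a peak. Of the 3 genes in no tissue group, NK7.1 had a 237 bp peak at 3R, 14369814 to 14370050, with its midpoint 76 bp downstream of the second of its 3 TSS positions, and the neighbouring TALE genes vis and achi, which act in spermatogenesis, were 57247 and 61030 bp away.

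**Figure D2:**
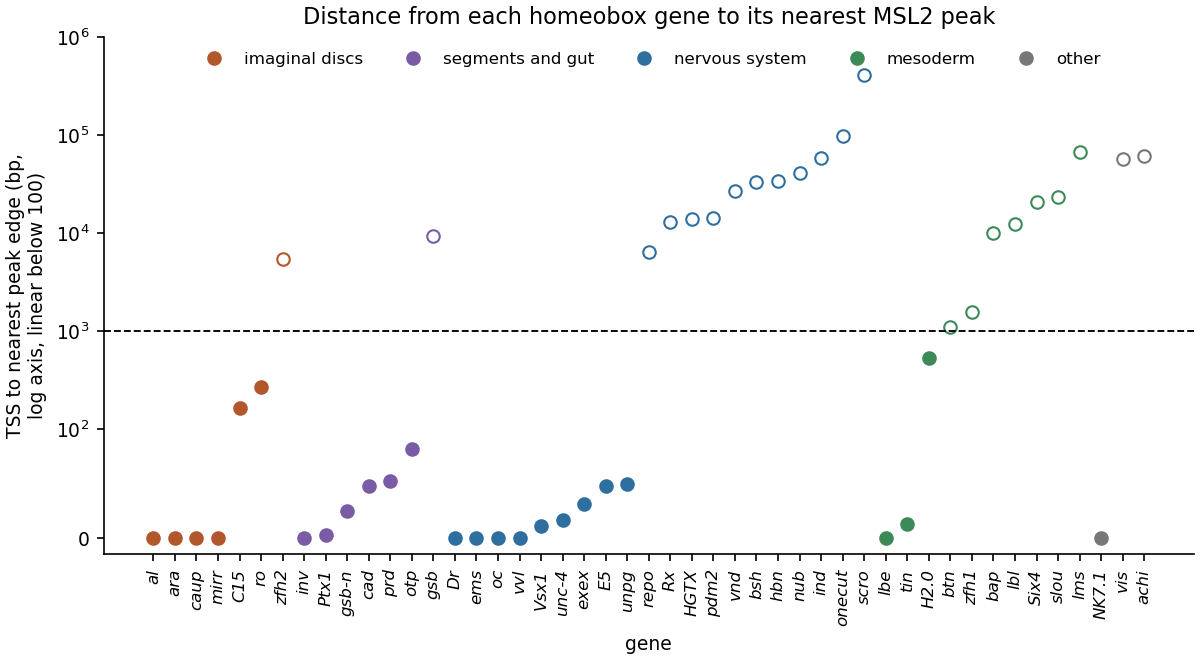
Distance in bp from the nearest TSS of each of the 47 homeobox genes (x axis) to the edge of the nearest MSL2 peak (y axis, logarithmic above 100 bp and linear below). Filled points carry a peak by the 1 kb rule (dashed line) and open points do not; colours are tissue groups, and H2.0 at 537 bp and btn at 1110 bp are the genes on either side of the limit.

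The distances left few genes undecided. The 25 peaks lay 0 to 537 bp from the TSS at their nearest edge, and the 22 genes without a peak had a median distance of 21878.5 bp (1110 to 409862 bp). When peaks within a gene or 1 kb of either end were counted, zfh2 was added and the count became 26 of 47 (55.32%), against 3185 of 18117 other genes (17.58%). Of these 26 members 25 had their peak at a TSS (96.15%), and of the 3185 other genes 2631 did (82.61%). Without the 1 kb to either end, 12 of 47 members (25.53%) and 2119 of 18117 other genes (11.70%) overlapped a peak at any base. Apart from zfh2, the members counted in this way were overlapped by the peak at their TSS. Several of these peaks crossed only the first bases of the gene, as at ems, where the peak ended 6 bp past the TSS.

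Member peaks occupied a narrow position. The midpoint lay upstream of the nearest TSS at 24 of 25 genes (96.00%, interval 80.46 to 99.29), the exception being NK7.1. At other protein-coding genes the midpoint was upstream in 1562 of 2494 pairs of a gene and a peak (62.63%). The median midpoint of the members was at -160 bp (quartiles -220 to -137), against -41 bp (quartiles -277 to 60) elsewhere. A band from 50 to 350 bp upstream held 21 of 25 member peaks (84.00%) and 660 of 2494 others (26.46%). The band was chosen after the positions had been seen.

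**Figure D3:**
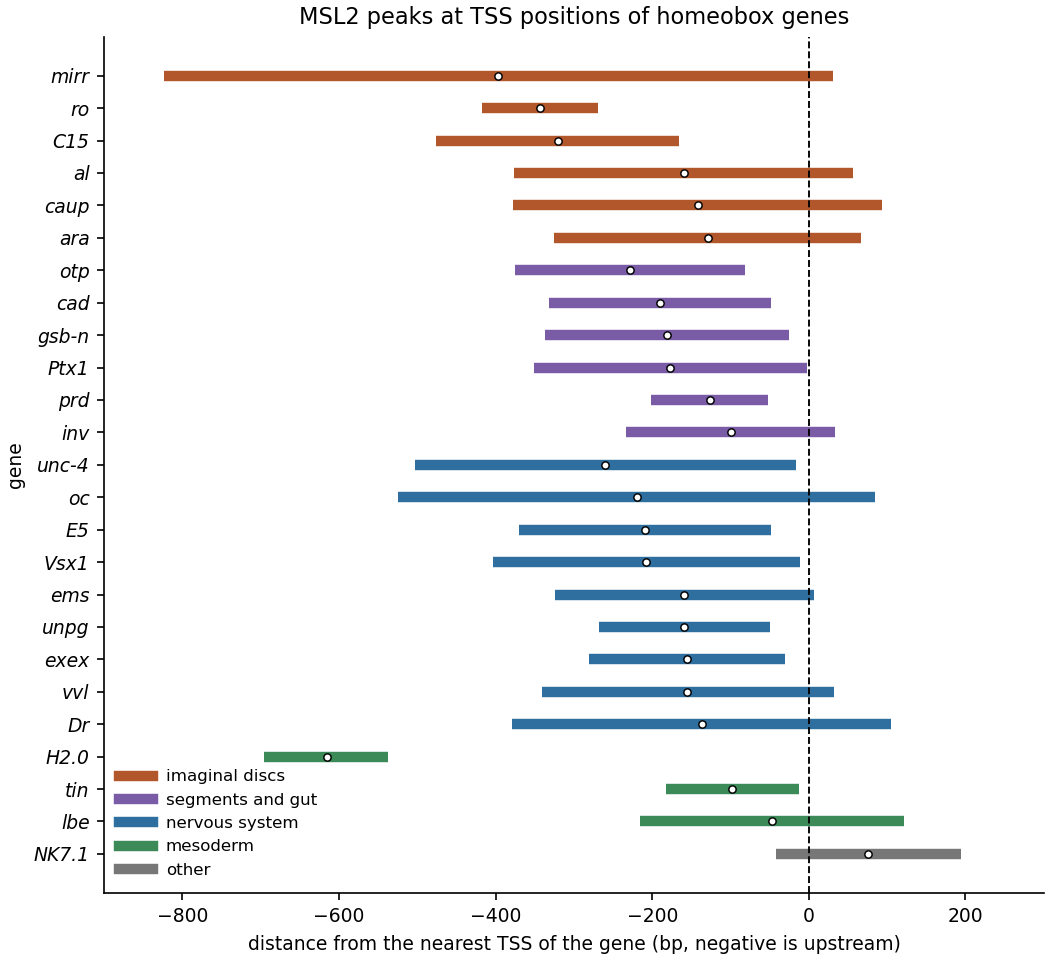
The 25 MSL2 peaks at homeobox genes, drawn as bars from first to last base relative to the nearest TSS (dashed line), in bp with upstream to the left. Colours are tissue groups and circles are midpoints; 24 of 25 midpoints lie upstream, and mirr has the widest peak at 856 bp.

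The position was also taken without genes of several start sites and without shared promoters. Among genes with 1 TSS, 18 of 18 member peaks were upstream, against 742 of 1181 others (62.83%). A peak within reach of another gene can be upstream of one and downstream of the other, and 4 of 25 member peaks (16%) were shared in this way, at C15, H2.0, prd and ro, against 839 of 1873 other TSS peaks (44.79%). With peaks at a single gene, 20 of 21 member peaks were upstream (95.24%, interval 77.33 to 99.15), against 540 of 965 others (55.96%). The share of member peaks with an upstream midpoint was therefore similar without shared peaks.

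**Figure D4:**
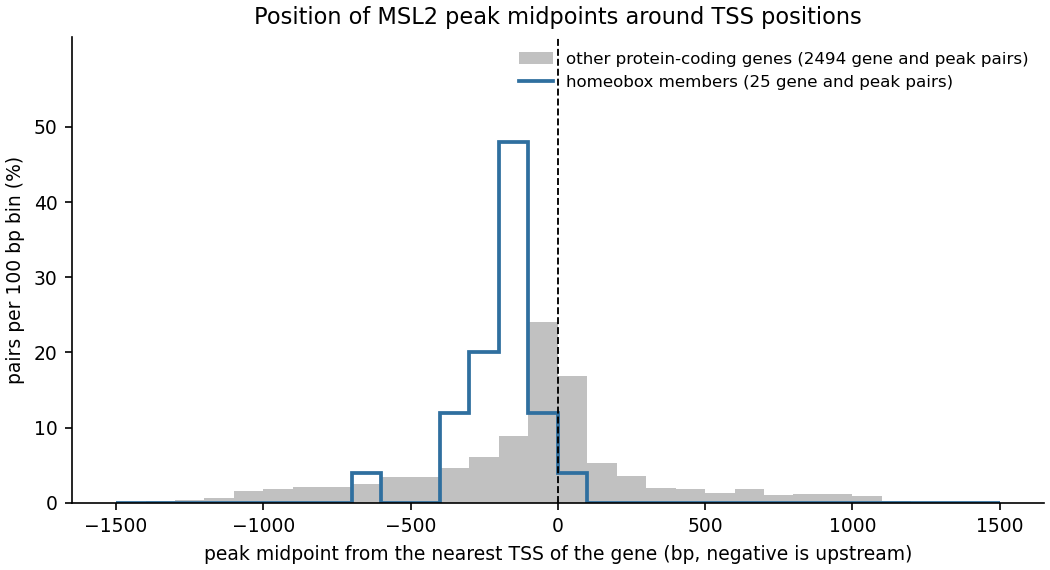
Distribution of peak midpoints around the nearest TSS in bins of 100 bp, as a percentage of pairs of gene and peak, for 25 pairs of homeobox members (line) and 2494 pairs of other protein-coding genes (grey area). The members gather upstream of the TSS around their median of -160 bp, while the others peak at the TSS and spread to both sides.

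Member peaks were also somewhat wider. Their median width was 323 bp (quartiles 251 to 394, range 150 to 856), against 244 bp (quartiles 184 to 365) for 1873 other TSS peaks. With peaks of the autosomal list alone, which leaves out the HAS on autosomes, the medians were 312 and 233.5 bp. The quartiles of both sets overlapped. The 5 widest were at mirr, oc, unc-4, Dr and caup, from 856 down to 473 bp, and the narrowest were at prd and ro with 150 bp.

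The GA repeat was present at most member peaks when 1 mismatch was allowed. In windows of 500 bp centred on the midpoint, GAGAGAGA with up to 1 mismatch on either strand was found at 23 of 25 (92%, interval 75.03 to 97.78), and H2.0 and NK7.1 were the windows without it. Other TSS peaks had it at 851 of 1873 (45.44%, interval 43.19 to 47.70). With 0 mismatches the shares were 36.00% of member peaks and 11.05% of other TSS peaks. The nearest match lay a median of 33 bp from the peak midpoint (0 to 93 bp), and at mirr and ro it was farthest, together with ems and otp. The number of match starts per window had a median of 3 (0 to 22) against 0 (0 to 24), with the highest numbers at E5 (22), Ptx1 (18), oc (17) and lbe (17). Counts of 10 to 12 were found at unc-4, Dr and inv, and counts of 5 to 7 at exex, gsb-n, al, caup and vvl. The other 11 windows with a match had 1 to 3 starts, among them those of ara, mirr, C15 and tin, so many of these peaks lay over few matches. The wide peak of mirr held 5 starts over its whole length and 1 in the window.

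None of the other words was more frequent at member peaks than at other TSS peaks. CACACACA was found in 15 of 25 member windows (60.00%) and in 62.79% of other TSS peaks, and both words occurred together in 13 member windows, GA alone in 10 and CA alone in 2. The A tract AAAAAAAA was less frequent at member peaks, in 56.00% (interval 37.07 to 73.33) against 76.24% (interval 74.26 to 78.11). In windows of at least 50% GC it was in 9 of 19 member windows (47.37%) and 274 of 515 others (53.20%). The control words GGAAGGAA and CCAACCAA, which have the bases of the repeats in another order, were in 24.00% against 25.79% and in 32.00% against 37.80%.

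Base composition moved with the GA repeat. The median GC content was 54% in member windows and 46.80% at other TSS peaks. With windows of at least 50% GC, 18 of 19 member windows (94.74%) and 284 of 515 others (55.15%) held the repeat. Among other peaks 50 to 350 bp upstream of a single gene, 165 of 276 held it (59.78%, interval 53.90 to 65.39). The member peaks were set beside this stratum without these limits, at 23 of 25 (92%). Of these 25 peaks, 21 lay in the band and 4 were shared with another gene. The share of the members was above each of these strata, and the strata were chosen after the data had been seen. The part of base composition in the difference was not tested beyond them.

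The GA repeat was also counted in promoters, with and without a peak. In windows from 400 bp upstream to 100 bp downstream of the most upstream TSS, it was found at 22 of 25 members with a peak (88.00%, interval 70.04 to 95.83) and at 9 of 22 without (40.91%, interval 23.26 to 61.27), while 23.65% of the first promoters of 13898 other protein-coding genes held it. The windows of the first group overlap the peaks of most of these genes. CACACACA was found in 44.00%, 59.09% and 36.57% of the same windows, so the order of the first pair was the opposite for that word, with overlapping intervals. The control word GGAAGGAA was found in 20% (5 of 25), 40.91% and 25.41%, also with the lower share at members with a peak. The median GC content of these windows was 53.20%, 48.40% and 38.40%, and its part in the shares was not tested.

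A GA repeat and a peak did not always go together. The promoter of lbl held 27 GA match starts with an uninterrupted GA run of 17 bp and that of hbn held 21 with a run of 16 bp, and neither gene carried a peak. At the paralogue lbe, with a peak, the numbers were 17 and 11 bp. The remaining promoters without a peak but with a match were those of HGTX (5), zfh1 (4), gsb (3), zfh2 (3), Rx (2), nub (2) and bsh (1). The ladybird pair, whose letters are printed above, thus had more repeat sequence at the copy without a peak.

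**Figure D5:**
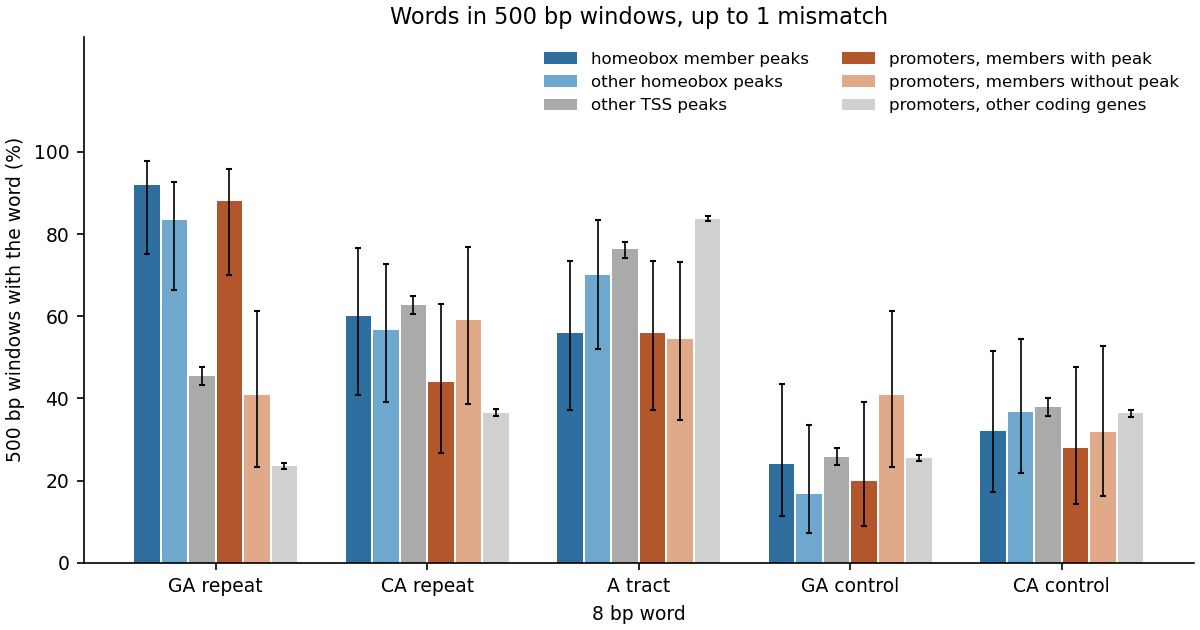
Percentage of 500 bp windows that hold each 8 bp word with up to 1 mismatch on either strand, for peaks of homeobox members, peaks of other homeobox genes, other TSS peaks and first promoters. Bars start at 0 and error bars are 95% Wilson intervals; for the GA repeat the members with a peak stand at 92% at their peaks, other TSS peaks at 45.44% and promoters of members without a peak at 40.91%, while the control word GGAAGGAA ranges from 16.67% to 40.91% over the same groups.

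The rest of the homeobox family gave similar values. Of 52 further homeobox genes, 27 carried a peak (51.92%, interval 38.69 to 64.90), namely 6 of 8 Hox genes, 4 of 7 LIM genes and 17 of 37 remaining genes. The 47 members were thus not set apart from the family by their share. At these genes 30 of 30 pairs of gene and peak had the midpoint upstream, 20 of 30 within the band from 50 to 350 bp, and 25 of 30 peaks held the GA repeat (83.33%). These peaks are included among the other TSS peaks used as background above.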

How the data were processed

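The authors deposited 3 MSL2 peak lists in BED format, whose chromosome, start and end columns were used; the score column of the autosomal list held no ranking. Tools listed in the submitters' notes are bedtools, MACS2 (2.1.1.20160309.0) and Bowtie2 (2.3.0.1), with the builds dm6 and BDGP6; their role and order are not given. Libraries were not analysed singly here, so no comparison of sexes or genotypes was made and the depth is unknown. Repeated intervals were counted once, and 16 autosomal-list intervals off the main chromosomes were left out. Starts were converted to 1-based coordinates, 0 intervals passed a chromosome end, and 54 of 54 start codons of members read ATG in the RefSeq assembly. Genes came from Ensembl release 115 (annotation 54) without transposable elements.

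Members, lists and role groups were chosen with earlier results of these data known, so no test was run. Described singly were members with several TSS peaks (there were none), with the 5 widest peaks, in gene clusters, on X and 4, and beside the 1 kb limit; all others were also placed. The upstream band, the strata of other peaks, GC limits, repeat runs and the lbl sequence were added after the data were seen. Counting was tested on simulated peaks. Python 3.11.15, scipy 1.17.1 and matplotlib 3.10.9 were used. Alternatives were windows of 500 bp and 2 kb, midpoints, other TSS choices, lists without HAS, wider peaks, 0 mismatches and other word windows.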

Additional observations from a re-analysis of the deposited data

How the results depend on the processing

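The count of 25 homeobox genes with a peak was 24 within 500 bp (H2.0 lost), 27 within 2 kb (btn and zfh1 gained), 25 by midpoints and by protein-coding TSS, 23 at the most upstream TSS (NK7.1 and inv lost), 24 without HAS (oc lost) and 20 with peaks of at least median width. In the same order the share of other genes was 12.17%, 17.49%, 13.79%, 12.36%, 13.39%, 14.00% and 7.761%, where protein-coding TSS leave noncoding genes without one by construction. The other homeobox genes numbered 19 to 28. With 0 mismatches the GA repeat was in 36.00% of member peaks and 11.05% of other TSS peaks, and the CA repeat in 24.00% and 28.56%. In 200 bp windows the GA repeat was in 92% and 27.34%, and the CA repeat in 36.00% and 36.89%. In whole peaks the GA repeat was in 88.00% and 38.60%, and the CA repeat in 48.00% and 49.12%. Without the 1 kb flank, 12 in place of 26 genes overlapped a peak, mostly the peak at their TSS. At the most upstream TSS, 100% of member peaks were upstream, since NK7.1 is then not counted. The median width ranged from 313 to 327 bp. No paired analysis was possible because the peak lists name no library and no result comes from a test. Depth, calling threshold and sex behind the lists are unknown, so absence of a peak sets no limit on binding.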
